A study of Mus musculus with 6 samples.

Results

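Acetylation of lysine 56 of histone H3 (H3K56ac) was mapped at 10 target genes of the Nodal and BMP pathways in mouse embryonic stem cells (mESCs). The genes were *Nodal*, *Tdgf1*, *Lefty1*, *Lefty2*, *Smad7*, *Skil*, *Bmp4*, *Id1*, *Id2* and *Id3*, out of 21938 protein-coding genes of the GENCODE M21 annotation. They were listed by name for their place in these pathways, with earlier results of these peaks known. For each gene, every merged H3K56ac peak in the gene body or within 40 kb on either side was taken, which gave 27 of the 11106 peaks of the series. A promoter peak had at least 1 base within 1 kb of a transcription start site (TSS) of the gene. A flanking peak had no base within 1 kb of the TSS of any protein-coding gene. Flanking peaks were defined by position alone, and no measurement in the file shows that they act as enhancers. H3K56ac peaks lay at the promoters of 9 of the 10 genes, all except *Lefty1*, compared to 35.7% of all protein-coding genes. Flanking peaks lay in the windows of 7 of the 10, compared to 22.1% of the windows of all genes. The broadest peak covered the start of *Tdgf1*, whereas the *Bmp4* window held a single narrow peak.

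The series held 6 ChIP-seq libraries of V6.5 mESCs, an established line, cultured on feeder cells with LIF. Scramble cells carried a lentiviral scrambled shRNA, and *Sirt6* KD cells a lentiviral shRNA that lowers, but need not remove, the H3K56 deacetylase SIRT6. Each group had 2 H3K56ac libraries and 1 input library of total chromatin. The authors merged H3K56ac peaks into 1 set of positions, which has no read count, height or p-value. The purpose of the series was to compare H3K56ac between Scramble and *Sirt6* KD cells, but a merged position does not tell which library gave it, so no gene could be compared between the groups and no replicate error can be given. A gap in the set cannot be read as absence of H3K56ac either, because the depth behind each position is not in the file. Feeder cells were checked by markers, since their chromatin could have entered the libraries. All 5 mESC markers (*Pou5f1*, *Nanog*, *Sox2*, *Zfp42* and *Esrrb*) had a promoter peak, and 0 of 11 fibroblast markers did, compared to 35.7% of all protein-coding genes. As a gap is not absence of H3K56ac, these counts do not tell how much feeder chromatin the libraries held.

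Nodal is a secreted ligand of the TGF-beta family that signals through activin receptors and the co-receptor TDGF1 (Cripto), leading SMAD2 and SMAD3 with SMAD4 into the nucleus, where FOXH1 brings them to DNA. The LEFTY proteins are secreted inhibitors of Nodal that are themselves induced by it, while SMAD7 and SKIL restrain the pathway inside the cell. BMP ligands such as BMP4 signal through SMAD1, SMAD5 and SMAD9, and the *Id* genes, whose products block basic helix-loop-helix factors, are their classical targets in mESCs. H3K56ac sits at the side of the nucleosome where DNA enters and leaves it, and is found at active promoters and enhancers.

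The following sequences show the reference letters of mm10 under or next to the peaks that distinguish these genes. The first is a stretch of 300 bases from the flanking peak upstream of *Lefty2*, at chr1:180888788-180889087 on the plus strand, shown because it holds a pair of matches to AATNCACA, the motif bound by FOXH1. Capitals mark the matches.
Lefty2 upstream: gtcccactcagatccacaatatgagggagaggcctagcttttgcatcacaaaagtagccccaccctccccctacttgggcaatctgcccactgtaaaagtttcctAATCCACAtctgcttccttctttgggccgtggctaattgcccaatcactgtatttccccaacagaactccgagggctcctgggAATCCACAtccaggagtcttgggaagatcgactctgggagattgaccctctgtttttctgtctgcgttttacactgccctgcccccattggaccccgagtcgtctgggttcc

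Shorter stretches show matches in other peaks near the genes, with the match in capitals, the coordinates of the match alone, and each sequence on the strand of its gene (the octamer in *Tdgf1* reads on the other strand). They comprise GTCTAGAC, the palindrome bound by SMAD proteins, in the same *Lefty2* peak; AATNCACA in the flanking peak and in the promoter peak of *Nodal* and in the upstream promoter peak of *Id2*; the octamer ATTTGCAT, bound by OCT4 and related factors, in the *Tdgf1* promoter peak; and GGCGCC, a GC-rich element of BMP-responsive genes, in the promoter peaks of *Skil* and *Id3*.
Lefty2, chr1:180889319-180889326: gaggatggtttGTCTAGACcagtccttcat
Nodal, chr10:61413722-61413729: agctggctgccAATACACAcaaggaatgag
Nodal, chr10:61419299-61419306: gacccggacgcAATCCACAtcttctaatcc
Id2, chr12:25098283-25098290: tctctgatgaaAATCCACAtccacaccaat
Tdgf1, chr9:110947992-110947999: cacagcgaaacATGCAAATccaaacaacca
Skil, chr3:31095861-31095866: agggctgtgggGGCGCCcctggtctagg
Id3, chr4:136144139-136144144: ctggcagagccGGCGCCtggacccccgg

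The 250 bases before the RefSeq start (GRCm38.p6) are shown for *Nodal* and *Tdgf1*, which had broad promoter peaks, and for *Bmp4*, which had a narrow one. The *Nodal* and *Tdgf1* stretches lay wholly under a broad peak, at chr10:61417722-61417971 on the plus strand and chr9:110946159-110946408 on the minus strand. The *Bmp4* stretch, at chr14:46390670-46390919 on the minus strand, lay outside the peak, which began only downstream of the start. GC content was 53.2% at *Nodal*, 42.0% at *Tdgf1* and 63.2% at *Bmp4*. None of the 3 stretches matched any of the 4 motifs, so they hold no capitals.
Nodal promoter: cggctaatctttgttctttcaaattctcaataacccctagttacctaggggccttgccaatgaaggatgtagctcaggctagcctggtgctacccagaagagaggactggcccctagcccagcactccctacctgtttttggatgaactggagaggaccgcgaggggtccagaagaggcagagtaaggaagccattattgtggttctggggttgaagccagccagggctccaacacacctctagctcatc
Tdgf1 promoter: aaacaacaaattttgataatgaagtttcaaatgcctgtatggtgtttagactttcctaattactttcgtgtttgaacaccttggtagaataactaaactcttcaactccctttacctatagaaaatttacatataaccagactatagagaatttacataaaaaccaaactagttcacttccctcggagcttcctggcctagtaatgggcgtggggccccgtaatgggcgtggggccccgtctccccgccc
Bmp4 promoter: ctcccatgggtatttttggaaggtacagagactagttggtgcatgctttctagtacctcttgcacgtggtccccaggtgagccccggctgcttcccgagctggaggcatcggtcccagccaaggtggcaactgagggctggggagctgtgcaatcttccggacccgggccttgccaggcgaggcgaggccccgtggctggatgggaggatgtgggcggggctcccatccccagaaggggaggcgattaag

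Promoter peaks were found at *Nodal*, *Tdgf1*, *Lefty2*, *Smad7*, *Skil*, *Bmp4*, *Id1*, *Id2* and *Id3*, that is at 9 of 10 genes, compared to 35.7% of all protein-coding genes. The same 9 genes were counted when the midpoint of the peak, rather than any base, had to lie within 1 kb of a TSS, compared to 33.9% of all genes. More than 1 promoter peak was present at 2 of 10 genes, *Smad7* with 3 and *Id2* with 2, against 2.78% of all genes. The later *Smad7* peaks began 2007 and 5539 bp downstream of the 5′ end, and the downstream *Id2* peak 1088 bp. These peaks, over 1 kb from the 5′ end, counted only through other annotated TSS of the genes. A flanking peak was present in 7 of 10 windows, compared to 22.1% of the windows of all genes, and missing at *Tdgf1*, *Lefty1* and *Bmp4*. With no base allowed within 3 kb of a protein-coding TSS, a peak was left in 4 of 10 windows, those of *Nodal*, *Lefty2*, *Skil* and *Id1*, compared to 18.2% of all windows; the peaks next to *Smad7*, *Id2* and *Id3* and the broad peak upstream of *Lefty2* were lost. Of the 27 peaks, 12 were promoter peaks of the 10 genes, 5 lay at promoters of other genes, and 10 were flanking (37.0%), which was close to the 34.2% of flanking peaks in the whole set. The genes were chosen with earlier results of these peaks known, so these counts describe the 10 genes and were not tested.

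**Figure D1:**
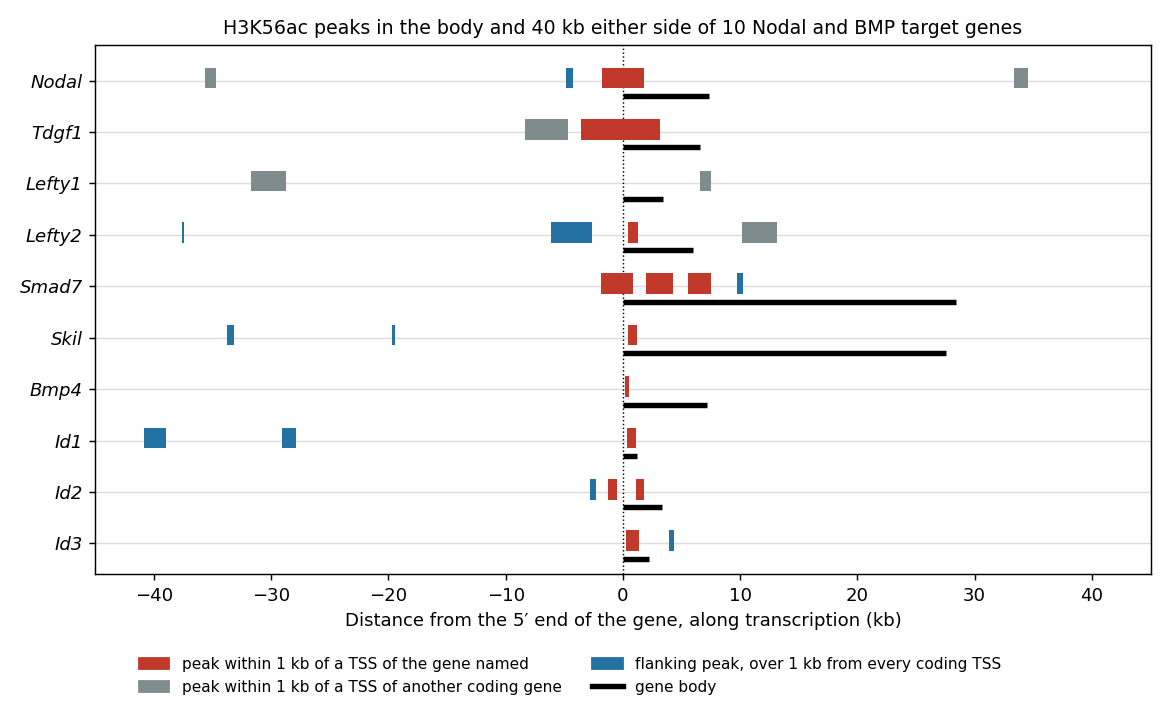
Merged H3K56ac peaks in the windows of the 10 genes. The x axis gives the distance from the 5′ end in kb along transcription, each row is a gene, black bars are gene bodies, and boxes are peaks to scale, colored by class. *Lefty1* lacks a red promoter peak, the *Bmp4* window holds only 1 peak, and blue flanking peaks appear in 7 rows.

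Peaks covered a larger share of the window than at the median protein-coding gene (0.657%) at all genes but *Bmp4*. The number of peaks per window ranged from 1 at *Bmp4* to 4 at *Nodal*, *Lefty2* and *Smad7*, with a median of 3, whereas the median over all protein-coding genes was 1. Peaks covered 12.0% of the *Tdgf1* window, 8.89% of the *Lefty2* window and 7.15% of the *Nodal* window, but 1.51% at *Skil* and 0.356% at *Bmp4*. The *Tdgf1* window was covered more than that of 98.5% of protein-coding genes, and the *Bmp4* window more than 44.1%. After joining the overlapping windows of *Lefty1* and *Lefty2*, 41038 of 849054 bp (4.83%) lay under peaks, compared to 0.529% of the assembled chromosomes, which include regions far from genes. Over windows around genes, the mean share was 4.94% for the 10 genes and 1.91% for all protein-coding genes.

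*Nodal*, the ligand that gives the pathway its name, lies at chr10:61417972-61425338 on the plus strand. A promoter peak of 3577 bp (chr10:61416199-61419775) reached from -1773 to +1803 bp relative to its 5′ end and was wider than 96.2% of all peaks. A second peak of 610 bp (chr10:61413143-61413752) was intergenic and ended 4220 bp upstream of the TSS. Both were separated by only 2446 bp, and *Nodal* was the nearest protein-coding gene to each. The other peaks of the window lay at the promoters of *Pald1* (926 bp) and *Eif4ebp2* (1135 bp), each more than 30 kb from the *Nodal* TSS. The promoter peak held AATCCACA at +1330 and GGCGCC at -382, and the flanking peak held AATACACA at -4247, counted in bp from the 5′ end to the middle of the match.

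*Bmp4*, the BMP ligand of the list, showed the opposite pattern. The gene lies at chr14:46383520-46390669 on the minus strand, and its only peak (chr14:46390190-46390499) measured 310 bp, from 170 to 479 bp downstream of the 5′ end. The peak was centred on an exon and lay 36 bp from the nearest annotated TSS of the gene. Only 2.04% of the genes with a promoter peak had a narrower one. The neighbouring peaks were 731269 and 370238 bp away, and 4.60% of all peaks were farther from their nearest neighbour. None of the 4 motifs matched inside it.

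*Tdgf1* encodes the GPI-anchored co-receptor of Nodal and is highly expressed in pluripotent cells. Its promoter peak (chr9:110943022-110949710) was the widest of all 27, with 6689 bp from -3552 to +3136 bp relative to the 5′ end, reaching into the gene (chr9:110939603-110946158, minus strand). It was wider than the promoter peak of 99.7% of the genes with one. A peak of 3686 bp at the promoter of the neighbouring gene *Lrrc2* followed after a gap of 1150 bp. No 2 peaks of the set were closer than 1000 bp, so both peaks were kept apart by little more than the smallest gap in the file. The octamer matched at -1837 in the *Tdgf1* peak, which held no AATNCACA, GTCTAGAC or GGCGCC.

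The paralogues *Lefty1* and *Lefty2* encode secreted Nodal inhibitors and lie on the same strand of chromosome 1, at chr1:180935022-180938400 and chr1:180893108-180899103, yet their peaks differed. *Lefty2* had a promoter peak of 891 bp in an intron (chr1:180893510-180894400), from 402 to 1292 bp downstream of the 5′ end, and a flanking peak of 3544 bp (chr1:180886968-180890511), from -6140 to -2597 bp. The flanking peak was the widest of the 10 flanking peaks and was wider than 96.2% of all peaks. *Lefty1* had neither: no peak base lay within its gene body or in the 10 kb upstream. The peaks of its window lay at promoters of other genes, among them a peak of 901 bp at *Tmem63a* that began 6583 bp downstream of the *Lefty1* 5′ end. A further peak of the *Lefty2* window, 179 bp in an intron of *Sde2*, was the narrowest of all 27.

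Motif matches were present upstream of both *Lefty* genes. In the 10 kb before the 5′ end, AATNCACA matched 5 times at *Lefty1* and 4 times at *Lefty2*. At the other genes it matched from 0 times at *Id1* to 14 times at *Id3*, so such matches were not particular to the *Lefty* genes. None of the *Lefty1* matches lay in a peak, whereas 2 of the *Lefty2* matches, AATCCACA at -4212 and -4129, lay in the flanking peak whose sequence is printed. The same peak held GTCTAGAC at -3786, a motif without a match in the 10 kb upstream of *Lefty1*. A match describes the letters and does not show that a factor was bound.

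Since the authors kept reads with a single location, the likeness of the paralogues was examined. Of the 1927 stretches of 75 bases, the read length in the methods, within 1 kb of the *Lefty1* 5′ end, 0 occurred elsewhere in the assembly and 0 matched the *Lefty2* locus with up to 2 mismatches. The same holds for the *Lefty2* 5′ end and for the 3470 stretches of its flanking peak. Shared stretches lay mainly within the genes, with few outside: 9.69% of the stretches in the *Lefty1* body and 1 kb either side, and 13.3% of those in the *Lefty2* promoter peak, matched the other gene with up to 2 mismatches. The best alignment of the *Lefty2* promoter peak to the *Lefty1* locus covered 311 bp with 92.6% identity, at 1464 to 1774 bp downstream of the *Lefty1* 5′ end, but that of the flanking peak only 99 bp with 71.7% identity. A slightly longer read length is given elsewhere in the study's material and was not examined. By exact match, each stretch within 1 kb of the *Lefty1* 5′ end thus had a single place in the assembly. The counterpart of the *Lefty2* promoter peak, 1464 to 1774 bp downstream of the *Lefty1* 5′ end, lay outside this range. Whether shared sequence accounts for the missing *Lefty1* promoter peak was not tested.

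**Figure D2:**
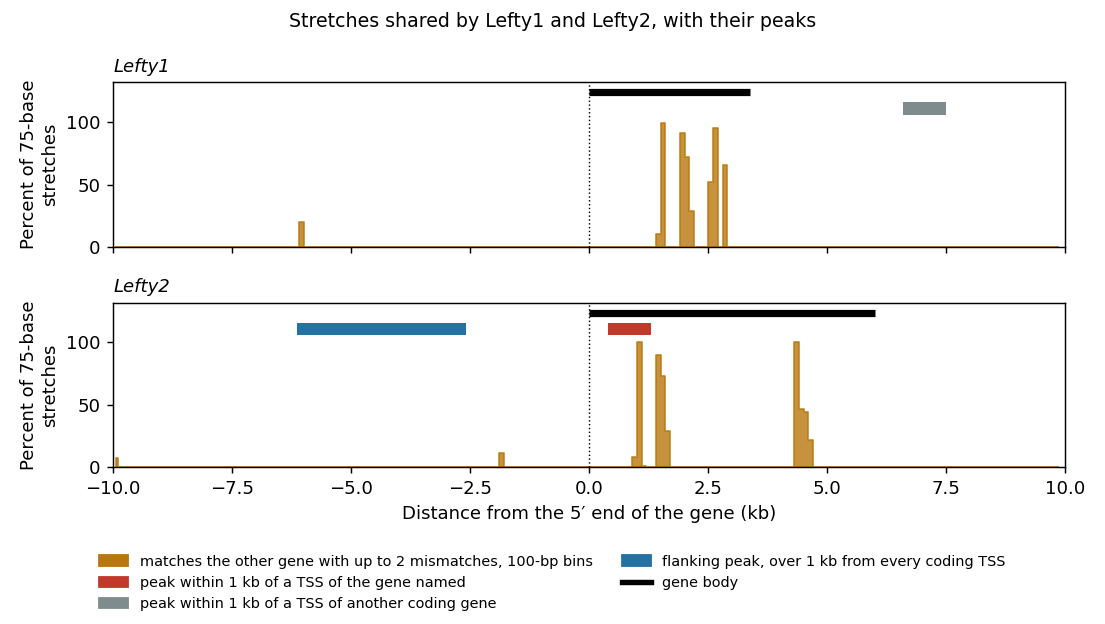
Sequence shared by *Lefty1* (top) and *Lefty2* (bottom). The y axis gives the percent of 75-base stretches per 100-bp bin that match the other gene with up to 2 mismatches, and the x axis the distance from the 5′ end in kb; boxes above are peaks and black bars gene bodies. Shared stretches lie mainly in the gene bodies, and none lies in the blue 3544-bp peak upstream of *Lefty2*.

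*Smad7*, which encodes an inhibitory SMAD that blocks activated receptors, had the most promoter peaks. Along the gene (chr18:75367529-75395935, plus strand), peaks of 2712, 2243 and 2010 bp lay within 1 kb of at least 1 of its 5 annotated TSS, followed by a flanking peak of 506 bp in an intron. Together they extended from -1832 to +10215 bp relative to the 5′ end, and neighbours were separated by 1127, 1289 and 2161 bp. The first of them (chr18:75365697-75368408) covered the 5′ end and was wider than the promoter peak of 87.3% of the genes with one. It held GTCTAGAC at -350, and GGCGCC matched 4 times in the first and second peak. No other peak lay within 40 kb of the gene. Because the first 2 gaps were close to the smallest gap in the file, the count of 3 depends on how the authors merged peaks. It also depends on counting every annotated TSS, since only the first of the 3 lay within 1 kb of the 5′ end.

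*Skil* encodes SnoN, a nuclear repressor that binds SMAD2, SMAD3 and SMAD4. Its promoter peak of 760 bp (chr3:31095507-31096266) lay from 449 to 1208 bp downstream of the 5′ end of the gene (chr3:31095058-31122577, plus strand), 382 bp from the nearest TSS. It held 3 matches to GGCGCC and the octamer at +1045. Upstream, intergenic peaks of 597 bp and 263 bp lay 33141 and 19473 bp from the TSS. The nearest protein-coding TSS to the first belonged to *Prkci*, and to the second *Skil* itself.

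The *Id* genes all carried promoter peaks narrower than the median of 1348.5 bp over the genes with one. *Id1* (chr2:152736251-152737410, plus strand) had a peak of 803 bp that lay wholly inside the short gene, from 314 to 1116 bp downstream of the 5′ end. At *Id3* (chr4:136143497-136145755, plus strand), the promoter peak of 1113 bp began 234 bp downstream of the outermost 5′ end and covered another annotated TSS. *Id2* (chr12:25093799-25097140, minus strand) was flanked by promoter peaks of 688 bp upstream and 697 bp downstream of the 5′ end. Relative to the outermost 5′ end, the promoter peaks of *Id1* and *Id3* thus lay downstream, whereas those of *Id2* lay on both sides. The RefSeq start of *Id3*, however, lay inside its promoter peak.

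The 250 bases before the RefSeq start of *Id2* (chr12:25096093-25096342) lay in the gap of 1633 bp between its promoter peaks. They held GGCGCC, the only match to any of the 4 motifs among the members found in the promoter table, where 9.59% of 32851 promoters held it. The shares were 3.18% for AATNCACA, 0.167% for GTCTAGAC and 1.60% for ATTTGCAT. Counted from the GENCODE 5′ end instead, *Smad7* also had GGCGCC just upstream, at -101 and -35 bp, inside its promoter peak. Flanking peaks of 518 bp at *Id2*, 2311 bp from the nearest TSS, and of 428 bp at *Id3*, 2426 bp from it, were close to the genes. The flanking peaks in the *Id1* window, of 1873 bp and 1167 bp, lay in the body of the upstream gene *H13* at 38949 and 27905 bp from the *Id1* TSS, and *H13* had the nearest protein-coding TSS. Position alone therefore did not assign them to *Id1*. The peak of 1873 bp also lay within 1 kb of an annotated TSS of a noncoding gene. With TSS of all annotated genes counted, 9 flanking peaks were left in the windows of the 10 genes.

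Promoter peaks fell on different sides of the gene starts. The 5′ end lay inside a peak at 3 genes, *Nodal*, *Tdgf1* and *Smad7*, compared to 55.2% of the 7836 genes with a promoter peak. At 5 genes, *Lefty2*, *Skil*, *Bmp4*, *Id1* and *Id3*, the promoter peak lay wholly downstream of the 5′ end, starting between 170 and 449 bp into the gene, compared to 33.6% of genes with a promoter peak. *Id2* had peaks on both sides and no gene had them upstream only. The 3 genes with a covered 5′ end were also those with a promoter peak above the median width, and the other 6 lay below it. This split holds for the outermost 5′ end of each gene, since the peak of *Id3* covered another annotated TSS.

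**Figure D3:**
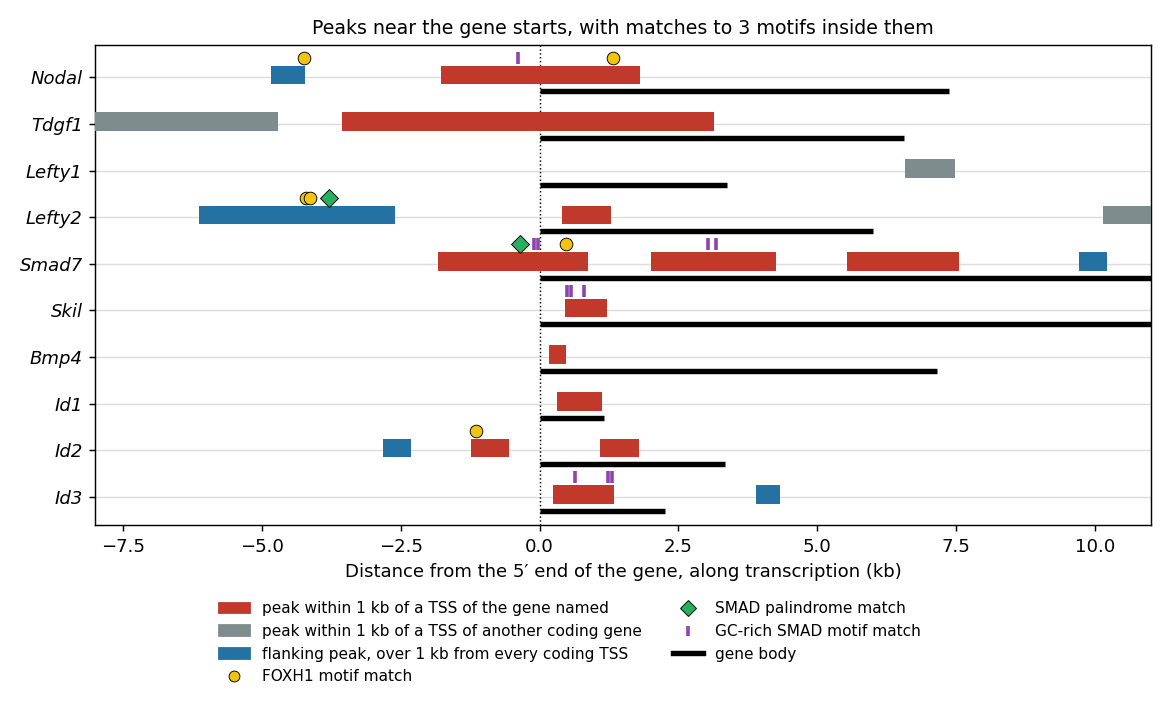
Peaks from 8 kb upstream to 11 kb downstream of the 5′ ends, in kb along transcription, with matches to the FOXH1 motif (circles), the SMAD palindrome (diamonds) and the GC-rich SMAD motif (ticks) inside promoter and flanking peaks. Peaks cross the dotted 5′ end at *Nodal*, *Tdgf1* and *Smad7* and begin downstream of it at *Lefty2*, *Skil*, *Bmp4*, *Id1* and *Id3*; both diamonds lie upstream, at *Lefty2* and *Smad7*.

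The widths of the peaks spread over a wide range, whereas their center was near that of the whole set. The median width of the 27 peaks was 901 bp (95% interval of the median 610 to 2010 bp, for the number of peaks only), compared to 913.5 bp over all peaks. The 12 promoter peaks had a median of 1002 bp, against 1162 bp for all peaks within 1 kb of a protein-coding TSS, and the 10 flanking peaks had a median of 557.5 bp, against 630 bp for all flanking peaks. At least 3 kb were reached by 5 of the 27 peaks, compared to 6.83% of all peaks. Among these were the promoter peaks of *Nodal* and *Tdgf1*, the flanking peak upstream of *Lefty2*, and the peak at *Lrrc2*. The windows thus held both very broad and very narrow peaks, while their median was close to that of all peaks. Peaks of the same locus are not independent, so the interval is no test of a difference in width.

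**Figure D4:**
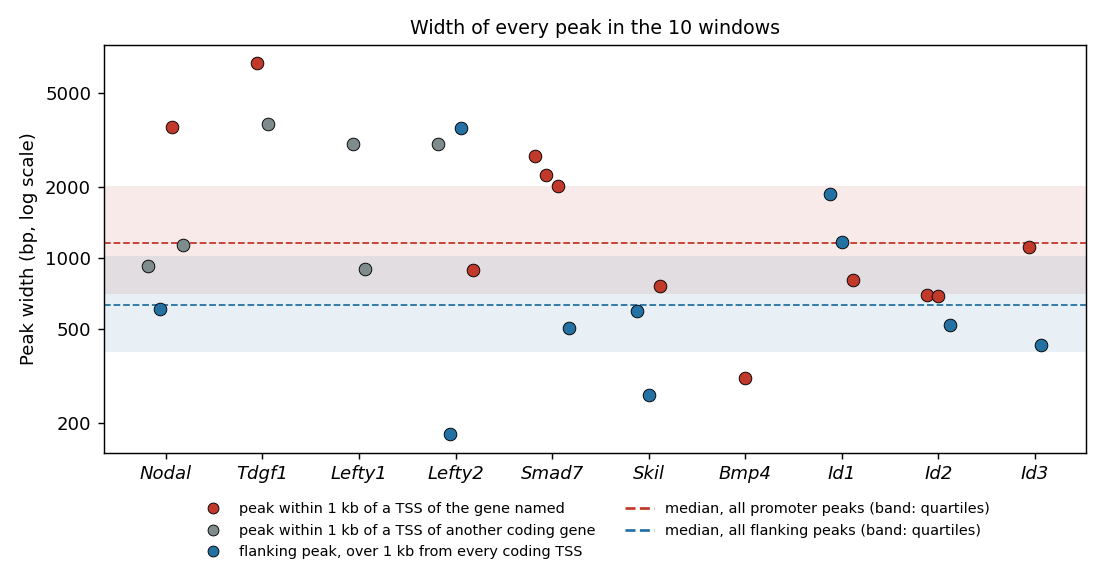
Width of every peak in the windows of the 10 genes, in bp on a log axis; points are peaks colored by class, dashed lines the medians over all promoter peaks (red, 1162 bp) and all flanking peaks (blue, 630 bp), and bands the quartiles. *Tdgf1* has the widest peak (6689 bp), and the upstream peak of *Lefty2* (3544 bp) stands above all other flanking peaks; a peak counted in both *Lefty* windows is drawn in both columns.

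Few peaks held a motif match in the central 300 bp, both among the 27 and over all peaks. AATNCACA was found in 0 of 27 peaks (3.82% of all peaks), GTCTAGAC in 1, at *Smad7* (0.324%), GGCGCC in 3 (9.76%) and ATTTGCAT in 0 (1.08%). Both strands were searched, and the matches in the 27 peaks did not overlap each other. Over whole peaks, AATNCACA matched 8 times, or 0.191 times per kb, compared to 0.146 per kb in all peaks. GTCTAGAC matched 2 times, or 0.048 per kb against 0.011, and GGCGCC 13 times, or 0.311 per kb against 0.330. The octamer matched 3 times, or 0.072 per kb against 0.043. With counts this small, the densities are descriptions of single matches rather than of the list.

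Other genes of the pathways were taken from a list by role. Of 58 other genes of the Nodal, activin, TGF-beta and BMP pathways, 20 (34.5%) had a promoter peak, close to the 35.7% of all protein-coding genes. Nuclear partners of the SMADs had one in 4 of 5 cases: *Foxh1* (2941 bp), *Trim33* (1193 bp), *Tgif1* (8334 bp) and *Tgif2* (1817 bp), but not *Ski*. Receptors had one in 6 of 12 cases, including the activin receptors *Acvr1b*, *Acvr2a* and *Acvr2b* and the BMP receptors *Bmpr1a* and *Bmpr2*, each below 1348.5 bp. Among SMAD genes, *Smad1*, *Smad4* and *Smad6* had a promoter peak, whereas *Smad2*, *Smad3*, *Smad5* and *Smad9* did not.

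Ligands had a promoter peak in 2 of 13 cases. These were *Gdf3* (4077 bp), a Nodal-related ligand of pluripotent cells, and *Tgfb1* (415 bp). Antagonists had one in 4 of 12 cases, the secreted BMP inhibitor *Grem1*, the ubiquitin ligases *Smurf1* and *Smurf2*, and *Pmepa1*. Of the co-receptor and proteases, *Pcsk6* had one, but not *Cfc1* or *Furin*. None of 6 other targets had a promoter peak. These were *Id4*, *Msx1*, *Msx2* and the genes *Gsc*, *Eomes* and *Mixl1*, which are best known from mesendoderm and later stages. The difference between the 10 genes and the 58 others was not tested, since the 10 genes were chosen by name with earlier results known.

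**Figure D5:**
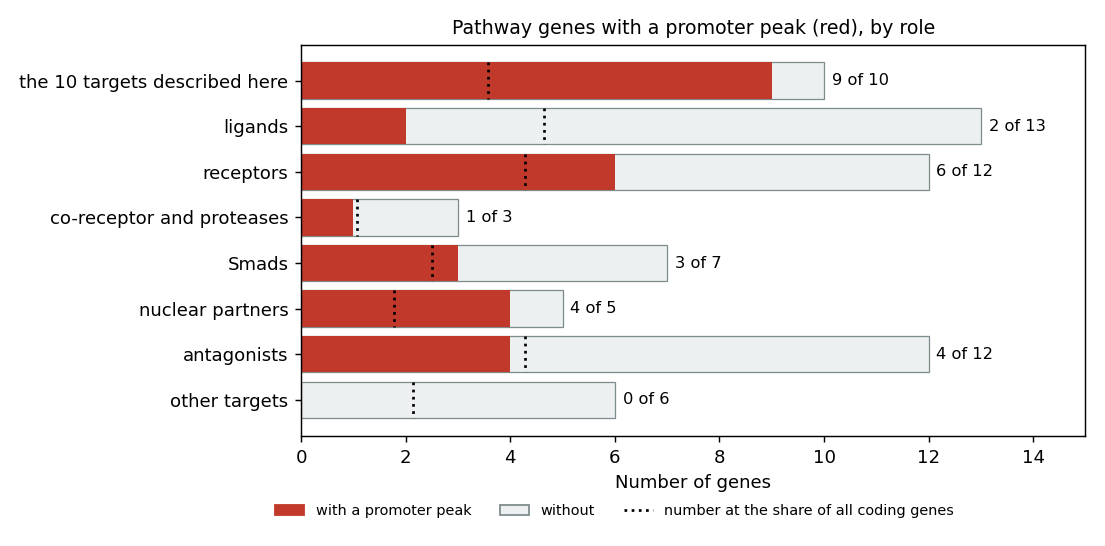
Number of genes with (red) and without (grey) a promoter peak for the 10 genes and for 58 other pathway genes by role. Dotted lines mark the number that the share over all protein-coding genes (35.7%) would give for a row of that size. The 10 targets (9 of 10) and the nuclear partners (4 of 5) extend past it, as do the receptors (6 of 12) and the Smads (3 of 7), while the 6 other targets have none.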

How the data were processed

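H3K56ac ChIP-seq and input libraries of Scramble and *Sirt6* KD mESCs were processed by the authors. Single-end reads were trimmed (Trim Galore) and aligned to mm10 (bowtie 1.1.2), and those with more than 1 possible place were discarded. Duplicates were removed with Picard, and MACS2 peaks outside blacklisted regions were merged by GenomicRanges. Repeated sequence can therefore lack peaks, and merging hides the library, its depth and peak height. The authors deposited peak positions with a score column that is 0 throughout and was not used. The read counts and DESeq2 comparison described in their methods were not analysed here. Libraries were grouped by sample title. Positions are counted from 1 on mm10, and peaks were compared with GENCODE M21, RefSeq promoters and the reference sequence using Python 3.11.15, numpy 2.4.6, scipy 1.17.1 and matplotlib 3.10.9. Every annotated transcript start of a protein-coding gene counted as a TSS. The genes, the pathway list and the markers were chosen with earlier results of these data known. Some listed and neighbouring genes are not reported here. Named genes were the 10 targets, the pathway list, the markers and the genes nearest to the peaks. No test between groups was possible, and counts are given beside those over all genes or peaks. The code was tested on simulated data. Other distances, windows, TSS sets and motif windows were tried. RefSeq promoters of *Lefty1*, *Lefty2*, *Skil* and *Id1* were not used here, and no sequence is shown for *Smad7*.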

Additional observations from a re-analysis of the deposited data

How the results depend on the processing

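Of 78 alternative settings, 55 gave a value close to the reported one, among them all 5 other promoter rules, which each counted 9 of 10 genes (33.0% to 37.4% of all protein-coding genes) and 19 to 22 of the 58 pathway genes. The other 23 moved a value, but the rule for this differed between results. A count moved when it changed by more than 1.5-fold. For the percent of bases covered, small changes also counted, such as 4.95% without *Id1* against 4.83%. These tallies are therefore no single measure of robustness. Windows of 100 kb either side held 41 peaks with 3.34% of bases covered, windows of 20 kb held 6 flanking peaks with 7.36% covered, and whole peaks inside the window covered 4.71%. With no base within 3 kb of a TSS, 6 flanking peaks were left, in 4 of the 10 windows (the count of windows was added after seeing the data), as the rule takes in fewer peaks. Leaving out each locus in turn, with fewer bases searched, gave 4.02% (without *Tdgf1*) to 5.35% (without *Bmp4*) of bases covered. AATNCACA was found in 2 peaks within 500 bp around the midpoint and in 7 over the whole peak, GTCTAGAC in 0 within 200 bp and 2 over the whole peak, GGCGCC in 7 over the whole peak, and ATTTGCAT in 2 within 500 bp and 3 over the whole peak. No paired analysis was possible because the file holds 1 merged set with no value per library, and for the same reason no replicate could be left out. Read depth, and with it the weakest peak that could be called, is not known from the file.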
